A study of Mus musculus with 6 samples.

Results

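Activated fibrotic fibroblasts were followed through 10 genes that such cells express in scarred lung: Cthrc1, Postn, Fap, Tnc, Grem1, Runx1, Fn1, Sfrp1, Lrrc15 and Ltbp2. The genes were taken by name from a table of read counts for 49315 mouse genes, and all 10 were found in it. The lungs came from C57BL/6 mice (C57BL/6J in the study's methods) that received either sterile saline (sham-treated) or bleomycin sulfate (BLM-treated), a DNA-damaging drug that causes lung fibrosis, by oropharyngeal instillation. On day 21 the lungs were dissociated to single cells, which were left unsorted or sorted by Lamp1 on the cell surface into Lamp1-depleted and Lamp1-enriched cells. Lungs of several mice of a group were pooled before RNA was prepared, and each of the 6 conditions is 1 library. No replicate was available, so no difference between mice could be estimated and no p-value is given. All intervals are 95% counting intervals and cover counting error only. In such bulk samples fewer cells of a type and less RNA per cell cannot be told apart.

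Fibroblasts that become activated after lung injury leave their resting state, secrete collagens, fibronectin and matricellular proteins, and release factors that act on neighbouring cells. Transforming growth factor beta drives much of this program, and several of the 10 genes act on that pathway, on bone morphogenetic protein (BMP) signals or on Wnt signals. None of the genes is limited to fibroblasts in every setting: macrophages and epithelial cells can make fibronectin, and Runx1 is a transcription factor of blood cells as well as of activated fibroblasts.

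Counted reads per library ranged from 30236120 to 52918696. Levels are given as CPM, counts scaled to library size with TMM factors, and as RPKM, which divides CPM by exon length in kilobases, where genes are compared with each other. A ratio was computed where the higher of both libraries had at least 10 reads, and a gene was called higher or lower at a difference of at least 2-fold, a log2 ratio of at least 1 or at most -1. The noncoding gene Gm26917 took 38.4% of the reads of the BLM Lamp1-depleted library and 0.884% to 7.10% of the others. That library enters the Lamp1-depleted comparison and the BLM sort comparison. It also enters the differences of the sort ratios and the BLM comparison of Lamp1-depleted with unsorted cells. None of these can be computed without it. Lamp1 itself was higher in Lamp1-enriched than in Lamp1-depleted cells, with log2 ratios of 1.75 in sham and 1.77 in BLM libraries.

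The 10 genes did not move as one group after BLM. In unsorted cells 6 of 10 were at least 2-fold higher in BLM than in sham cells, where 13.9% of all genes tested were that much higher. Only Postn was at least 2-fold lower, beside 16% of all genes. The median log2 ratio of the 10 genes was 1.84, against -0.07 over all genes tested. Grem1, Fn1, Tnc, Lrrc15, Runx1 and Sfrp1 were higher, in that order of size, while Cthrc1, Fap and Ltbp2 stayed within 2-fold. With libraries scaled by total counts Cthrc1 was also lower by that rule (-1.12, against -0.86). Without Fn1 and Runx1 the median was 0.85.

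**Figure D1:**
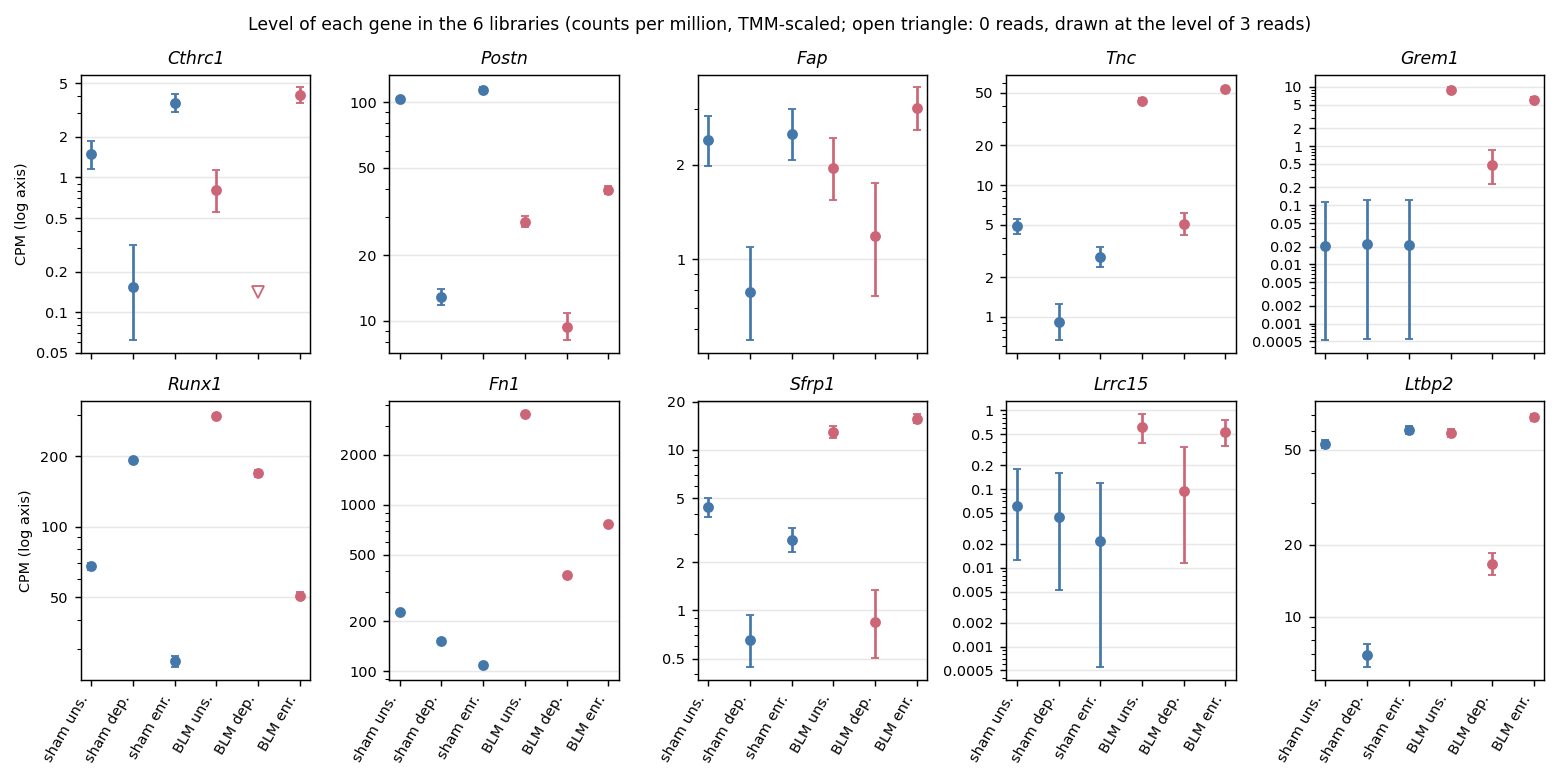
Level of each of the 10 genes in the 6 libraries, in CPM on a log axis with its own range for each gene, with sham libraries in blue and BLM libraries in red. Bars are 95% counting intervals and the open triangle marks 0 reads. Grem1 and Lrrc15 have at most 3 reads in each sham library, Postn is highest in sham cells, and Fn1 and Runx1 are highest in BLM unsorted cells.

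The secreted BMP antagonist Grem1 (gremlin 1) was close to absent from sham lungs. Each of the 3 sham libraries held 1 read of it, whereas BLM unsorted cells held 352, BLM Lamp1-depleted cells 10 and BLM Lamp1-enriched cells 330. In CPM these were 0.0206, 0.0219 and 0.0217 in unsorted, Lamp1-depleted and Lamp1-enriched sham cells, and 8.92, 0.473 and 6.05 in the matching BLM libraries. No sham interval overlapped a BLM interval. The log2 ratio of BLM to sham was 8.13 in unsorted cells, with a wide interval of 6.27 to 14.07 because it rests on a single sham read. It was 7.58 (5.63 to 13.43) in Lamp1-enriched and 3.73 (1.62 to 9.87) in Lamp1-depleted cells. The gene lies on the minus strand of chromosome 2 at 113746164 to 113758646 in GRCm38.

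Lrrc15, a leucine-rich repeat membrane protein of activated fibroblasts, had the same form at a lower level. It had 3, 2 and 1 reads in unsorted, Lamp1-depleted and Lamp1-enriched sham cells, and 24, 2 and 29 reads in the BLM libraries in the same order. Reads were above the sham range in BLM unsorted and Lamp1-enriched cells, and within it in BLM Lamp1-depleted cells. The log2 ratio was 3.08 (1.58 to 5.67) in unsorted cells and 4.10 (2.02 to 9.97) in Lamp1-enriched cells. No ratio is given for Lamp1-depleted cells, where both libraries had 2 reads. Lrrc15 lies on chromosome 16 at 30269302 to 30283256, on the minus strand.

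Tnc encodes tenascin C, a matricellular glycoprotein that is deposited in healing and fibrotic tissue. Its level in unsorted, Lamp1-depleted and Lamp1-enriched sham cells was 4.86, 0.921 and 2.85 CPM, and in BLM cells 43.7, 5.11 and 53.4 CPM. Every BLM library was above the sham library of the same fraction, and the highest sham level was close to the lowest BLM level, with overlapping intervals. BLM over sham was 8.97-fold (7.84 to 10.3) in unsorted cells, 5.48-fold (3.85 to 8.13) in Lamp1-depleted cells and 18.7-fold (15.7 to 22.5) in Lamp1-enriched cells. Tnc spans chromosome 4 from 63959785 to 64047015, on the minus strand.

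Sfrp1, a secreted antagonist of Wnt ligands, was higher after BLM in unsorted and Lamp1-enriched cells. Its levels were 4.41, 0.658 and 2.76 CPM in unsorted, Lamp1-depleted and Lamp1-enriched sham cells, and 12.9, 0.852 and 15.7 CPM in BLM cells. The log2 ratio was 1.55 (1.32 to 1.79) in unsorted and 2.50 (2.24 to 2.79) in Lamp1-enriched cells. In Lamp1-depleted cells, with 30 sham and 18 BLM reads, it was 0.37 and its interval of -0.56 to 1.26 held 0. The gene is on chromosome 8 at 23411502 to 23449632, on the plus strand.

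The sequences just before the start sites of Grem1, Lrrc15, Tnc and Postn are shown because, of the genes with a promoter window, the first 3 had the largest ratios of BLM to sham in unsorted cells and Postn was lower. RefSeq promoter windows of build GRCm38.p6 were found for 6 of the 10 genes (Postn, Tnc, Grem1, Runx1, Lrrc15 and Ltbp2), and the 250 bases upstream of the start nearest to the gene's annotated 5′ end were used. Capitals mark a motif found by letters: the TATA box letters TATAAA, the AP-1 motif TGANTCA, the RUNX motif TGTGGT, the TEAD motif GGAATG or the SMAD motif CAGACA, each searched on both strands. The TATA box letters were added to the search after the sequences were seen. The windows lie at chr2:113758649-113758898 (Grem1, minus strand), chr16:30283255-30283504 (Lrrc15, minus strand), chr4:64047016-64047265 (Tnc, minus strand) and chr3:54360857-54361106 (Postn, plus strand), and are written 5′ to 3′ on the strand of the gene.
Grem1: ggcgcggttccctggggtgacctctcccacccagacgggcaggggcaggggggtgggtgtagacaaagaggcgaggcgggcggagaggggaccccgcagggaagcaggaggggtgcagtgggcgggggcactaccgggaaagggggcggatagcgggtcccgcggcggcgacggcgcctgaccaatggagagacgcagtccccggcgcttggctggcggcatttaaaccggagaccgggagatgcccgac
Lrrc15: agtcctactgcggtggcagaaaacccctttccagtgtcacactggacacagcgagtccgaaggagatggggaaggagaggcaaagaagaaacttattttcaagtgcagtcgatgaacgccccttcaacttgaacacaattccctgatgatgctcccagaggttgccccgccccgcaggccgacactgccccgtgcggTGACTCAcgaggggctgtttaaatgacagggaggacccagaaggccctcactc
Tnc: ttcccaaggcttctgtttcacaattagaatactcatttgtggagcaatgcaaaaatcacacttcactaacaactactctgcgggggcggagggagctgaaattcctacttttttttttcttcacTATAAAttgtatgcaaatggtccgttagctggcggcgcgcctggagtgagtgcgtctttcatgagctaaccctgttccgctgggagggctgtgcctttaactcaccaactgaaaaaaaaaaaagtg
Postn: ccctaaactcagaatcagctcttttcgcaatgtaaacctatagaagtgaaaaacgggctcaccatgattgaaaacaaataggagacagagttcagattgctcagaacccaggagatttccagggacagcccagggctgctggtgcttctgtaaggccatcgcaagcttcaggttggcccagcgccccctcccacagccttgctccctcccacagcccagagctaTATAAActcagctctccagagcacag

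The windows differ in composition, from a GC content of 44.8% for Tnc and 52% for Postn to 56.4% for Lrrc15 and 72% for Grem1. Postn holds TATAAA at -26 to -21 and Tnc holds it at -126 to -121, counted from the start site. Lrrc15 holds TGACTCA, a form of the AP-1 motif, at -53 to -47. The Grem1, Runx1 and Ltbp2 windows hold none of the motifs, and none of the 6 windows holds the RUNX letters. Among 32851 windows of this length, TATAAA was found in 12.4%, TGANTCA in 6.75%, TGTGGT in 14%, GGAATG in 12.6% and CAGACA in 17.1%. These are matches of letters in a short window and say nothing of binding.

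Fn1, which encodes the matrix glycoprotein fibronectin, was the most abundant of the 10 genes per exon length in 4 of the 6 libraries. It stood at 226, 152 and 109 CPM in unsorted, Lamp1-depleted and Lamp1-enriched sham cells, and at 3509, 377 and 768 CPM in BLM cells. All 3 BLM libraries were above all 3 sham libraries, and BLM unsorted cells were far above both sorted BLM fractions. The log2 ratio of BLM to sham was 3.95 (3.93 to 3.98) in unsorted cells, 2.82 (2.77 to 2.86) in Lamp1-enriched cells and 1.31 (1.26 to 1.35) in Lamp1-depleted cells. With total counts the Lamp1-depleted ratio was 0.59, short of 2-fold. Fn1 lies on chromosome 1 at 71585520 to 71653200, on the minus strand.

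Runx1 was the one gene of the 10 that was at least 2-fold higher in Lamp1-depleted than in Lamp1-enriched cells, and it was so in both treatments. Its levels were 67.9, 192 and 26.7 CPM in unsorted, Lamp1-depleted and Lamp1-enriched sham cells, and 297, 169 and 50.8 CPM in BLM cells. BLM unsorted cells were highest and sham Lamp1-enriched cells lowest. BLM over sham was 4.38-fold (4.21 to 4.55) in unsorted cells and 1.91-fold (1.78 to 2.04) in Lamp1-enriched cells, whereas in Lamp1-depleted cells the log2 ratio was -0.19 (-0.24 to -0.13). That sign turned when levels were scaled to fibroblast genes (0.61). Runx1 spans chromosome 16 from 92601466 to 92826149, on the minus strand.

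Macrophage genes, like Fn1 and Runx1, were higher after BLM in unsorted cells. The summed level of 10 monocyte and macrophage markers was 174, 451 and 98.1 CPM in unsorted, Lamp1-depleted and Lamp1-enriched sham cells, and 1095, 350 and 203 CPM in BLM cells. In BLM unsorted cells 9 of the 10 were at least 2-fold higher than in sham, beside 13.9% of all genes. Runx1 had the same order of libraries, except that BLM Lamp1-enriched cells were above sham unsorted cells for the markers and below them for Runx1. Fn1 had another order. In BLM cells it was at 768 CPM in Lamp1-enriched and 377 CPM in Lamp1-depleted cells, where these markers were at 203 and 350 CPM. All 8 scar-associated macrophage genes were higher in BLM unsorted cells, with a median log2 ratio of 5.07, and their summed level was 4972 CPM in that library and 27.9 to 732 CPM in the other 5. In BLM Lamp1-enriched and Lamp1-depleted cells that level was 732 and 400 CPM, the order seen for Fn1. Csf1r, the macrophage receptor for colony-stimulating factor 1, was at 280 CPM in BLM unsorted cells and at 102 and 41.1 CPM in BLM Lamp1-depleted and Lamp1-enriched cells. Like Fn1 and Runx1, it was thus lower in both sorted BLM fractions than in the unsorted cells. The part of these cells in the levels of Fn1 and Runx1 was not tested.

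Postn, the matricellular protein periostin, was lower after BLM. It was at 102.8, 12.9 and 113.8 CPM in unsorted, Lamp1-depleted and Lamp1-enriched sham cells, and at 28.4, 9.42 and 39.6 CPM in BLM cells. Each BLM library was below the sham library of its fraction. Postn was 3.62-fold lower in unsorted and 2.88-fold lower in Lamp1-enriched cells, with log2 ratios of -1.86 (-1.95 to -1.76) and -1.52 (-1.60 to -1.45). In Lamp1-depleted cells the log2 ratio was -0.45 (-0.69 to -0.22), and scaled to fibroblast genes it was 0.35. Postn lies on chromosome 3 at 54361109 to 54391037, on the plus strand.

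Pericyte markers moved in the same direction as Postn, as did several other marker lists in unsorted cells. The summed level of 7 pericyte genes was 211, 27.7 and 268 CPM in unsorted, Lamp1-depleted and Lamp1-enriched sham cells and 136, 25.6 and 127 CPM in BLM cells. In BLM unsorted cells 4 of the 7 were at least 2-fold lower and 1 higher, beside 16% and 13.9% of all genes. The log2 ratio of summed reads there was -0.64 for pericyte, -0.81 for general fibroblast, -0.55 for resting fibroblast and -0.80 for smooth muscle markers. It was -0.64 for endothelial, -1.87 for alveolar epithelial and -2.48 for platelet markers. For monocyte and macrophage markers it was 2.65. Pde8b, Nr2f1 and Notch3, a receptor of mural cells, were the 3 genes whose pattern over the 6 libraries was closest to that of Postn. The part of pericytes, fibroblasts or smooth muscle cells in the level of Postn was not tested.

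Cthrc1, a secreted collagen triple helix protein that marks collagen-rich fibroblasts in fibrotic lung, differed far more between the sorted fractions than between treatments. It had 72, 7 and 165 reads in unsorted, Lamp1-depleted and Lamp1-enriched sham cells (1.48, 0.154 and 3.59 CPM) and 32, 0 and 224 reads in BLM cells (0.811, 0 and 4.11 CPM). Both Lamp1-enriched libraries were highest and both Lamp1-depleted libraries lowest. BLM over sham was -0.86 on the log2 scale (-1.52 to -0.25) in unsorted cells, which is short of 2-fold, and 0.20 (-0.10 to 0.50) in Lamp1-enriched cells. The 0 reads in BLM Lamp1-depleted cells correspond to a level of up to 0.142 CPM at 3 reads, or 0.175 CPM at the upper limit of the counting interval, and the sham Lamp1-depleted level of 0.154 CPM lies below that upper limit. Cthrc1 is on chromosome 15 at 39076932 to 39087121, on the plus strand.

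Fap, a membrane serine protease called fibroblast activation protein, was among the lowest of the 10 genes and changed little in CPM. It was at 2.39, 0.790 and 2.50 CPM in unsorted, Lamp1-depleted and Lamp1-enriched sham cells, and at 1.95, 1.18 and 3.03 CPM in BLM cells. Its BLM over sham interval held 0 in all 3 fractions, with log2 ratios of -0.29 (-0.73 to 0.14), 0.57 (-0.21 to 1.36) and 0.28 (-0.08 to 0.63) in the unsorted, depleted and enriched fractions. An increase of 2-fold lies outside the unsorted and Lamp1-enriched intervals and inside the Lamp1-depleted one. Scaled to fibroblast genes, the log2 ratio was 0.54 (0.12 to 0.95) in unsorted and 1.36 (0.62 to 2.10) in Lamp1-depleted cells. In Lamp1-enriched cells it was then 0.30 (-0.04 to 0.65). Fap lies on chromosome 2 at 62500943 to 62574075, on the minus strand.

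Ltbp2, a matrix protein of the family that holds latent transforming growth factor beta, was nearly level in unsorted and Lamp1-enriched cells. It was at 52.6, 6.89 and 60.4 CPM in unsorted, Lamp1-depleted and Lamp1-enriched sham cells, and at 58.7, 16.7 and 68.3 CPM in BLM cells. BLM over sham was 1.12-fold (1.05 to 1.18) in unsorted cells, 1.13-fold (1.08 to 1.19) in Lamp1-enriched cells and 2.42-fold (2.07 to 2.83) in Lamp1-depleted cells. The small unsorted difference turned to a log2 ratio of -0.11 when libraries were scaled by total counts, and the Lamp1-depleted ratio was then 0.55. Ltbp2 is on chromosome 12 at 84783212 to 84876532, on the minus strand.

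In Lamp1-enriched cells 5 of 10 genes (Grem1, Tnc, Lrrc15, Fn1 and Sfrp1) were at least 2-fold higher after BLM, beside 10.2% of all genes, and Postn was lower, beside 7.86%. The median of the 10 was 1.72, and that of all genes was near 0. In Lamp1-depleted cells 8 genes had enough reads, and 4 of them (Tnc, Grem1, Fn1 and Ltbp2) were higher, beside 13.7% of all genes. None was at least 2-fold lower there, beside 22.3% of all genes. The median was 0.92, against -0.20 for all genes tested, and with total counts alone it was 0.21, with 2 genes higher and Postn lower.

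At least 8-fold higher after BLM (a log2 ratio of at least 3) were 4 of 10 genes in unsorted cells, namely Grem1, Fn1, Tnc and Lrrc15, beside 1.66% of all genes. In Lamp1-enriched cells 3 genes, Grem1, Tnc and Lrrc15, passed that limit, beside 1.35%, and in Lamp1-depleted cells Grem1 did, beside 2.52%. None of the 10 was 8-fold lower in any fraction, beside 1.93%, 0.637% and 3.84% of all genes in unsorted, Lamp1-enriched and Lamp1-depleted cells. The Grem1 and Lrrc15 ratios rest on 1 to 3 sham reads.

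**Figure D2:**
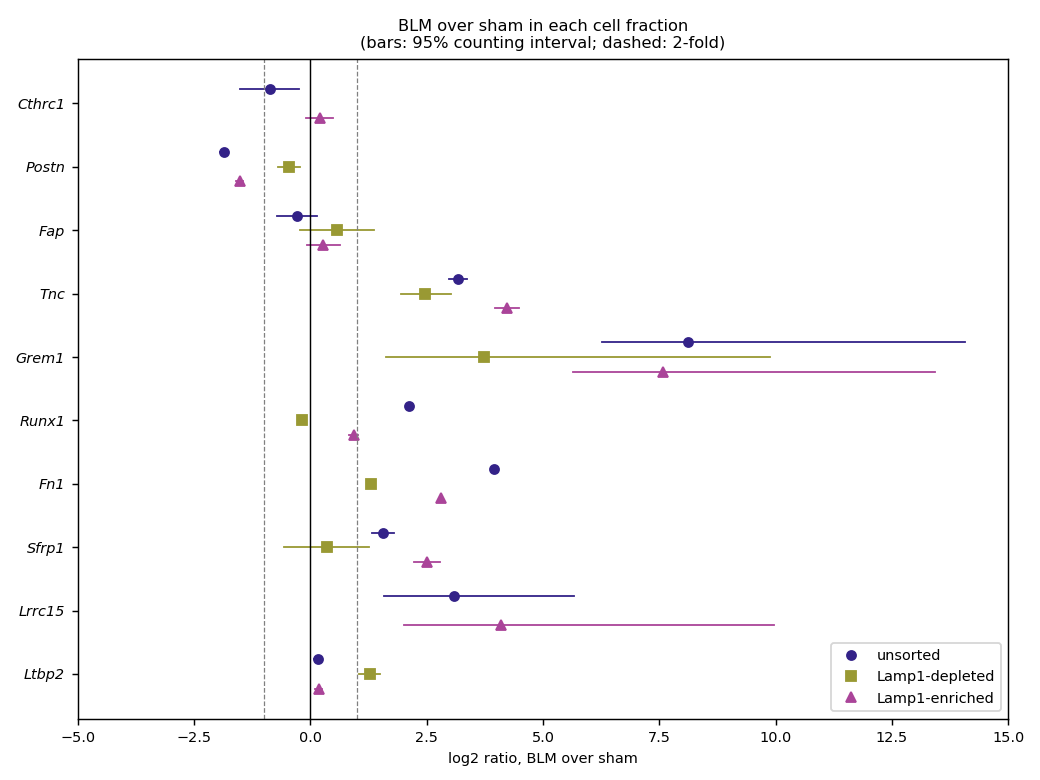
Log2 ratio of BLM to sham for each gene in unsorted (circles), Lamp1-depleted (squares) and Lamp1-enriched cells (triangles), with 95% counting intervals as bars and dashed lines at 2-fold. Tnc, Grem1 and Fn1 are at least 2-fold higher in all 3 fractions (Fn1 in Lamp1-depleted cells not with total counts, at 0.59), and Postn lies below 0 in all 3.

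The sort placed most of the genes in the Lamp1-enriched fraction. In sham cells 6 of the 8 genes with enough reads were at least 2-fold higher in Lamp1-enriched than in Lamp1-depleted cells, beside 27.5% of all genes, and Runx1 was lower, beside 25.2%. The log2 ratios were 4.45 (3.47 to 5.88) for Cthrc1, 3.14 (3.02 to 3.27) for Postn, 3.13 (2.96 to 3.30) for Ltbp2, 2.05 (1.49 to 2.69) for Sfrp1, 1.65 (1.11 to 2.24) for Fap and 1.62 (1.12 to 2.17) for Tnc. Fn1 was at -0.48 (-0.54 to -0.43) and Runx1 at -2.85 (-2.94 to -2.76). Grem1 and Lrrc15 had too few sham reads for a ratio. The median was 1.85, against -0.01 for all genes.

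In BLM cells 9 of 10 genes were higher in the Lamp1-enriched fraction, beside 34.3% of all genes, and Runx1 was again lower, beside 22.6%. The count was 8 with DESeq2 size factors and with total counts outside Gm26917, where Fn1 was at 0.88 and 0.91. Cthrc1 was at least 28.9-fold higher when the Lamp1-depleted library, with 0 reads, was set to 3 reads, and the lower limit of its counting interval was 23.3-fold. The log2 ratios were 4.18 (3.53 to 4.96) for Sfrp1, 3.64 (2.78 to 4.75) for Grem1, 3.38 (3.11 to 3.67) for Tnc, 2.34 (0.51 to 5.60) for Lrrc15, 2.07 (1.86 to 2.29) for Postn and 2.03 (1.88 to 2.20) for Ltbp2. Fap (1.35, 0.74 to 2.02) and Fn1 (1.03, 0.99 to 1.06) were nearest to the 2-fold limit, and Runx1 was at -1.73 (-1.80 to -1.66). The median of 2.20, against 0.29 for all genes, was the same with Cthrc1 at its bound.

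At the 8-fold limit, 3 genes (Cthrc1, Postn and Ltbp2) were higher in Lamp1-enriched than in Lamp1-depleted sham cells, beside 6.21% of all genes, and 4 genes (Cthrc1, Sfrp1, Grem1 and Tnc) in BLM cells, beside 10.6%. None was 8-fold lower, beside 6.86% of all genes in sham and 6.62% in BLM cells.

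**Figure D3:**
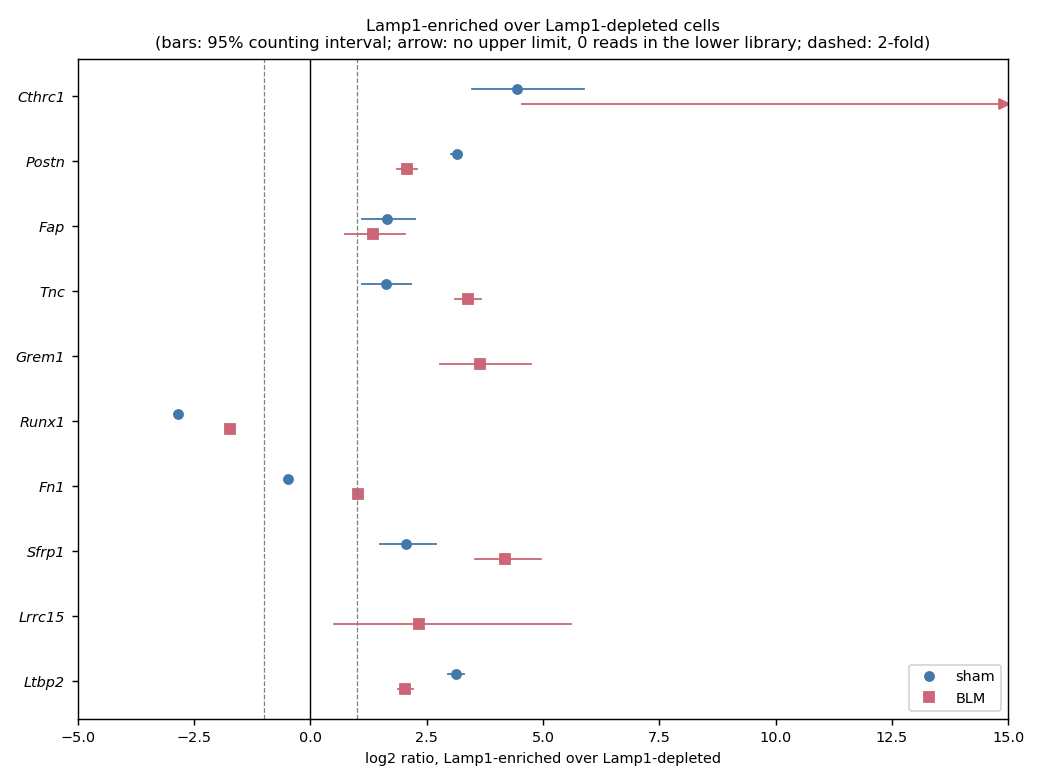
Log2 ratio of Lamp1-enriched to Lamp1-depleted cells in sham (circles) and BLM (squares) libraries, with 95% counting intervals as bars and dashed lines at 2-fold. The arrow marks Cthrc1 in BLM cells, where the Lamp1-depleted library had 0 reads. Runx1 lies below 0 in both treatments and Fn1 lies on opposite sides of 0.

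The sort ratio differed between treatments by more than counting error for 6 of the 7 genes that could be compared. The share of all genes past this rule was not computed, and counting intervals are narrow at high read counts. The count is therefore not read as a trait of these genes. The BLM log2 ratio exceeded the sham ratio by 2.13 (1.26 to 3.01) for Sfrp1, 1.76 (1.19 to 2.33) for Tnc, 1.51 (1.45 to 1.57) for Fn1 and 1.12 (1.01 to 1.23) for Runx1. For Postn the difference was -1.07 (-1.32 to -0.83) and for Ltbp2 -1.09 (-1.32 to -0.86). For Fap it was -0.30, with an interval of -1.11 to 0.50 that held 0. The differences rest on 4 libraries, share them with the BLM over sham ratios of the sorted cells and shift together with the scaling. With total counts Postn was at -0.34, Ltbp2 at -0.36 and Fap at 0.42 (-0.38 to 1.23). With scaling to fibroblast genes Runx1 was at 0.35, Fn1 at 0.74 and Fap at -1.07 (-1.88 to -0.27). The signs of the 6 held under all 4 other scalings, but their sizes did not.

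Most general fibroblast genes were also higher in the Lamp1-enriched fraction. Of 10 such genes, 7 were at least 2-fold higher in Lamp1-enriched than in Lamp1-depleted sham cells, beside 27.5% of all genes. In BLM cells 9 were higher, beside 34.3%. This was not particular to fibroblast genes, as all 10 endothelial and all 8 platelet markers were higher in both treatments. Pdgfra, the platelet-derived growth factor receptor of lung fibroblasts, had log2 ratios of 1.59 and 2.16. Thy1, which T cells also express, went the other way, with 4253 sham and 1245 BLM reads in Lamp1-depleted cells against 230 and 165 in Lamp1-enriched cells, and was left out of the scaling described next. Summed T cell markers were at 574 and 441 CPM in the sham and BLM Lamp1-depleted libraries and at 16.5 to 49.7 CPM in the other 4. Summed endothelial markers were at 10818 and 11313 CPM in the sham and BLM Lamp1-enriched libraries, the highest of all lists shown.

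**Figure D4:**
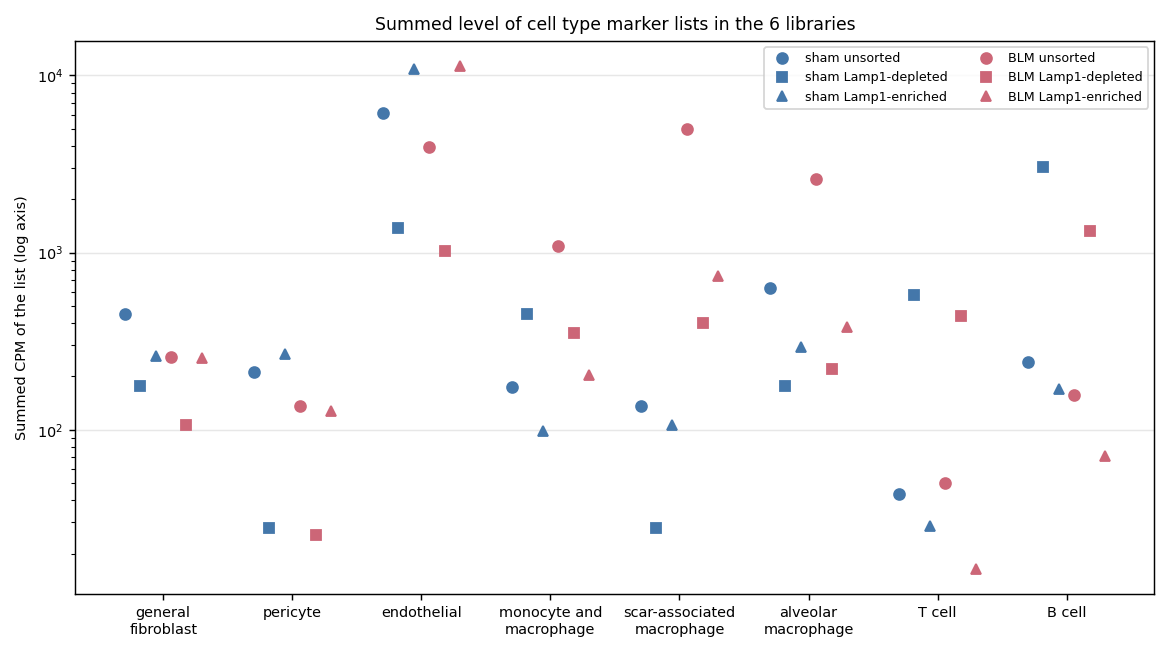
Summed CPM of 8 cell type marker lists in the 6 libraries, on a log axis, with sham in blue and BLM in red, and with circles, squares and triangles for unsorted, Lamp1-depleted and Lamp1-enriched cells. Macrophage lists are highest in BLM unsorted cells, T and B cell lists in Lamp1-depleted cells and the endothelial list in Lamp1-enriched cells.

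Each gene was therefore also set against the reads of 9 general fibroblast genes, a choice made after the data were seen. Per 1000 such reads Tnc stood at 11.0, 11.2 and 11.1 in unsorted, Lamp1-depleted and Lamp1-enriched sham cells, and at 175.6, 107.6 and 211 in BLM cells. On this scale Tnc was level over the sham fractions and higher in every BLM fraction. Sfrp1 stood at 9.95, 7.97 and 10.7 in sham cells and at 51.9, 17.9 and 62.2 in BLM cells. Lrrc15 was at 0.0845 to 0.531 in sham and at 1.99 to 2.44 in BLM cells, and Grem1 at 0.0465 to 0.266 and 9.96 to 35.8. For Tnc, Sfrp1, Lrrc15 and Grem1, as for Fn1 and Ltbp2, every BLM library was above every sham library. For Ltbp2 the margin was narrow, with 235.7 in BLM unsorted and 234.7 in sham Lamp1-enriched cells. For Sfrp1 the order rests on 18 reads in BLM Lamp1-depleted cells. In CPM that library, at 0.852, was below sham unsorted (4.41) and Lamp1-enriched cells (2.76). The fibroblast scale shifts BLM over sham log2 ratios by 0.83 in unsorted, 0.80 in Lamp1-depleted and 0.03 in Lamp1-enriched cells. The Lrrc15 values of the Lamp1-depleted libraries rest on 2 reads each, and the interval of their log2 ratio, -0.96 to 4.10, held 0.

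Cthrc1 was still higher in Lamp1-enriched cells on the fibroblast scale, with a sham log2 ratio of 2.86 in place of 4.45. It was at 3.35, 1.86 and 13.9 per 1000 fibroblast-gene reads in unsorted, Lamp1-depleted and Lamp1-enriched sham cells, and at 3.26, 0 and 16.3 in BLM cells. The unsorted libraries of both treatments were thus alike, and the log2 ratio of BLM to sham was -0.04. Postn was at 232, 156 and 443 in sham and at 114, 198 and 157 in BLM cells, still lower after BLM in unsorted and Lamp1-enriched cells. Ltbp2 was at 118.8, 83.4 and 235 in sham cells and at 236, 351 and 271 in BLM cells.

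Fn1 and Runx1 stood apart on this scale. Fn1 was at 511, 1845 and 424 per 1000 fibroblast-gene reads in unsorted, Lamp1-depleted and Lamp1-enriched sham cells, and at 14094, 7926 and 3044 in BLM cells. Runx1 was at 2329 and 3554 in the sham and BLM Lamp1-depleted libraries and at 104 and 201 in the Lamp1-enriched ones. With this scaling the Lamp1-enriched over Lamp1-depleted count fell to 3 of 8 genes higher and 2 lower in sham cells, with a median of 0.22, and to 3 of 10 higher and 3 lower in BLM cells, with a median of -0.13. By construction the scaling shifts the sort ratios by -1.64 in sham and -2.41 in BLM cells. Genes with few reads shift less, because their ratio rests in part on the prior count. Cthrc1 in BLM cells, with 0 Lamp1-depleted reads, went from 8.28 to 7.92. Postn (-0.34), Fap (-1.05), Fn1 (-1.38) and Ltbp2 (-0.37) were then below 0 in BLM cells, and Tnc in sham cells was at -0.01, with an interval of -0.51 to 0.49 that held 0.

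**Figure D5:**
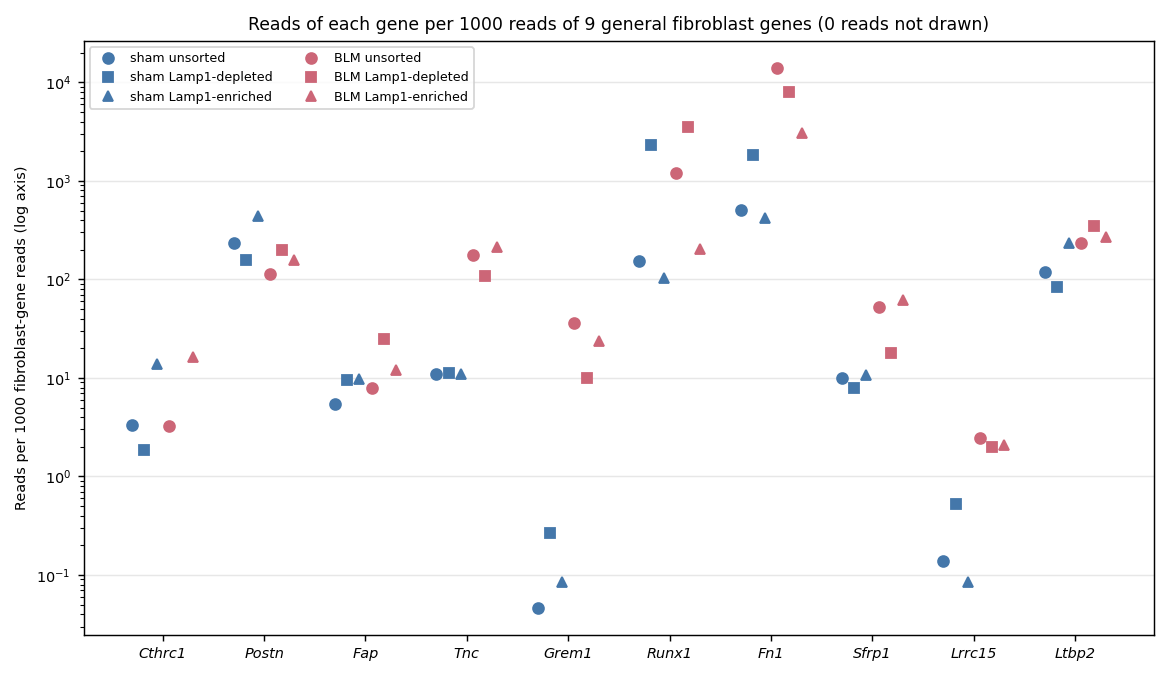
Reads of each gene per 1000 reads of 9 general fibroblast genes, on a log axis, with sham in blue and BLM in red, and with circles, squares and triangles for unsorted, Lamp1-depleted and Lamp1-enriched cells. Tnc, Grem1, Sfrp1, Fn1, Lrrc15 and Ltbp2 have all BLM points above all sham points, Ltbp2 by a narrow margin. Cthrc1 is highest in both Lamp1-enriched libraries. The Sfrp1 and Lrrc15 points of BLM Lamp1-depleted cells rest on 18 and 2 reads.

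Against the unsorted cells, the Lamp1-enriched fraction held most of the genes at a like level. Of 8 genes tested in sham cells, Cthrc1 was higher (log2 ratio 1.27, beside 2.63% of all genes higher), and Runx1 (-1.35) and Fn1 (-1.05) were lower, beside 15.9%. In BLM cells the same 3 of 10 genes passed 2-fold: Cthrc1 at 2.33, beside 12.6% higher, and Runx1 at -2.55 and Fn1 at -2.19, beside 19.1% lower. The Lamp1-depleted fraction was lower than unsorted cells for 6 of 8 genes in sham, beside 30.4% of all genes, and for 8 of 10 in BLM, beside 33.6%. Runx1 was higher in sham Lamp1-depleted cells (1.50), beside 18.3% of all genes. The medians were -2.56 in sham and -2.79 in BLM cells, or -2.50 with Cthrc1 at its bound of 3 reads.

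Per exon length the genes covered a wide range of levels. In sham unsorted cells Fn1 led with 19.4 RPKM, before Postn with 11.8, Ltbp2 with 6.43 and Runx1 with 5.65. In BLM unsorted cells Fn1 was at 300.3 RPKM and Runx1 at 24.7, Ltbp2 was at 7.17, and Tnc at 5.62 had passed Postn at 3.27. Postn went from the first place in sham Lamp1-enriched cells (13.1 RPKM) to the fourth in BLM Lamp1-enriched cells (4.55), and Tnc from the eighth (0.366) to the third (6.86). Lrrc15 stayed at or below 0.115 RPKM in all 6 libraries.

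Other genes of the activated matrix program were more often higher than lower after BLM in each fraction. Of 30 such genes, 12 were at least 2-fold higher and 2 lower in BLM unsorted cells, beside 13.9% and 16% of all genes. Their median log2 ratio was 0.69. The highest were Inhba, an activin subunit, at 4.09, the matrix adhesion protein Tgfbi at 3.87 and the protease inhibitor Timp1 at 3.07, and the lowest were the collagen chain Col12a1 at -1.30 and the matrix protein Spon1 at -1.08. In Lamp1-enriched cells 18 of 30 were higher and none was lower, beside 10.2% and 7.86% of all genes. The median was 1.54, with the fibrillar collagen chain Col1a1 at 3.24. In Lamp1-depleted cells 12 of 28 tested were higher and 4 lower, beside 13.7% and 22.3% of all genes, with a median of 0.88. Log2 ratios of that comparison shift by -0.72 with total counts. The 18 resting alveolar and adventitial fibroblast genes gave 1 higher and 10 lower in unsorted cells, beside 13.9% and 16% of all genes. Their median was -1.07. In Lamp1-enriched cells 2 of the 18 were higher and 6 lower, beside 10.2% and 7.86% of all genes. The median there was -0.33, while the summed reads of these genes were higher after BLM, at a log2 ratio of 0.63. General fibroblast genes gave 0 higher and 3 lower of 10 in unsorted cells, beside 13.9% and 16% of all genes, with Pdgfra at -1.61.

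The pathway partners of the 10 genes were counted in BLM against sham unsorted cells, where 13.9% of all genes were at least 2-fold higher and 16% lower. Most of these lists are short, and several of their shares lie near those of all genes. Around Grem1, 1 of 11 BMP ligands and response genes was higher and 4 were lower. Smad6, Bmp6 and Bmp4 were at -1.69, -1.68 and -1.66 on the log2 scale, and Id2 was at 1.34. In Lamp1-enriched cells, where Grem1 was at 7.58, 0 of the 11 were higher and 0 lower, beside 10.2% and 7.86% of all genes. Their median there was -0.16. In unsorted cells 0 of 10 endothelial markers were higher and 5 lower. The part of endothelial cells in these BMP values was not tested. Of 11 other BMP antagonists, 2 were higher and 4 lower, with the activin and BMP antagonist Fst at 1.33 and Chrdl1 at -1.75. Around Sfrp1, 1 of 15 Wnt ligands and response genes was higher and 5 were lower, with the ligand Wnt2 at -2.48, and of 8 other Wnt antagonists 3 were higher, Dkk2 at 2.50 first, and 4 lower.

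Among 13 integrin and syndecan genes, which encode receptors for fibronectin and other matrix proteins, 3 were higher and 3 lower. The integrin subunits Itgb5, Itga5 and Itgav were at 1.85, 1.20 and 1.02 and Itga8, Itga2b and Itgb3 at -2.21, -1.76 and -1.12. Itga2b is also a platelet gene, and all 8 platelet and megakaryocyte markers were at least 2-fold lower, with a median of -2.14 and a summed level of 59.5 CPM against 333 CPM in sham cells. The part of platelets in the integrin values was not tested. Near Runx1, its relatives Runx2 and Runx3 were at 1.83 and 1.05 and the shared partner Cbfb at 0.37. Of 5 genes of the Ltbp and fibrillin family, Fbn2 alone passed 2-fold (1.79). Dpp4, a protease related to Fap, was at -1.77, and Tnxb, a relative of Tnc, at -1.04. Of 13 core genes of transforming growth factor beta signalling, 2 were higher and 1 lower, with the receptors Tgfbr1 at 2.15 and Tgfbr3 at -1.22.

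For 9 of the genes the most similar patterns over the 6 libraries were sought among 17935 genes with at least 50 reads in their highest library, by the root mean square distance of centred log2 levels. Lrrc15 was below that minimum. Tnc was closest to Timp1 (0.406), Pbk (0.415) and Col1a1 (0.484), and Sfrp1 to Cdh3 (0.351), the collagen chain Col5a2 (0.380) and Pappa2 (0.382). Fn1 was closest to Nxpe5 (0.285), Cd200r1 (0.329) and Ms4a7 (0.333). Runx1 was closest to Fam105a (0.105), Tenm4 (0.131) and Capg (0.170).

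Postn was closest to Pde8b (0.0895), Nr2f1 (0.0900) and Notch3 (0.113), and Ltbp2 to Ier3 (0.122), Epn3 (0.133) and Pdgfrl (0.135). Fap had the nearest neighbours, Bicd2 (0.0559), Gdpd3 (0.0640) and Arhgef7 (0.0811). Cthrc1 was closest to Esr2 (0.447), Ndn (0.491) and Gm16485 (0.526). Grem1 had no near match, with Cldn4 at 1.01, Gm14461 at 1.28 and the macrophage elastase Mmp12 at 1.37. Among these 9 genes themselves the closest pair was Fap and Ltbp2 (0.598).

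Tnc, Runx1, Fn1 and Ltbp2 each overlap a gene on the opposite strand, and the strand setting of the counting was not given in the sources used here, so reads of such pairs may not be told apart. The overlapping genes had few reads. Gm26626 beside Runx1 had 18 to 220 reads per library, 8030451A03Rik beside Tnc 0 to 35, Apol7d beside Fn1 0 to 17 and D030025P21Rik beside Ltbp2 0 to 23.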

How the data were processed

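PolyA RNA of whole-lung, Lamp1-depleted or Lamp1-enriched cells, after saline or BLM, was sequenced. Titles assigned the samples to 6 conditions, each with 1 library. The deposited values are raw counts of reads per gene, not normalized. The submitters' processing notes name Trimmomatic 0.36, STAR 2.5.2b, featureCounts of Subread 1.5.2, DESeq2 and GRCm38; the annotation release and strand setting are not given in the sources used here. Reads counted per library were 30236120 to 52918696.

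Counts were scaled with TMM factors (edgeR 4.0.16, R 4.3.3), and ratios were computed in Python 3.11.15 (numpy 2.4.6, scipy 1.17.1, pandas 2.3.3) with 95% Clopper-Pearson intervals. The prior count, 0.5 reads, followed library size, and the higher library needed at least 10 reads. With 1 library per condition no test was run, and genes were described by a 2-fold rule beside all genes tested. A library at 0 reads was set to 3 reads for bounds. Exon lengths and coordinates came from GENCODE M21 (GRCm38), in which 48970 of 49315 genes were found. The ratio script was checked on simulated data. The 10 genes and all lists were chosen with earlier results of these data known. All 10 genes are named, and from the other lists up to 3 genes with the highest and 3 with the lowest ratio, and for each gene the 3 nearest patterns; Runx2, Runx3, Cbfb, Dpp4, Tnxb, Id2, Csf1r, Pdgfra, Thy1 and Lamp1 were also named. Siglecf and Areg, listed as markers, were not found. Alternatives were DESeq2 1.42.0 size factors, total counts with and without Gm26917, a prior count of 2 reads, other read minimums, counts thinned to the smallest library, an 8-fold rule, leaving out Fn1 and Runx1, and scaling to 9 general fibroblast genes.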

Additional observations from a re-analysis of the deposited data

Results flagged for a closer look

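Runx1 had ratios of BLM to sham above 0 in unsorted and Lamp1-enriched cells and slightly below 0 in Lamp1-depleted cells. Its log2 ratio of BLM to sham was 2.13 in unsorted cells and 0.93 in Lamp1-enriched cells but -0.19 in Lamp1-depleted cells, with 1 library on each side, and the difference between fractions was not tested. The Lamp1-depleted value was near the median of all genes tested there, -0.20, and moves with the scaling. It was -0.91 with total counts, -0.04 with DESeq2 size factors and 0.61 with scaling to fibroblast genes.

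Fn1 went in different directions between treatments. Its log2 ratio of Lamp1-enriched to Lamp1-depleted cells was 1.03 in BLM and -0.48 in sham libraries, and the difference was not tested against the variation between mice. Scaled to fibroblast genes both were negative, at -1.38 and -2.12.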

How the results depend on the processing

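Of 145 values recomputed for the main counts and medians under another setting, 117 stayed within their spread or within 1.5 times the count, 27 moved beyond it and 1 changed sign. DESeq2 size factors left every count as it was except that of genes higher in BLM Lamp1-enriched than Lamp1-depleted cells, which was 8 in place of 9. In unsorted cells 2 genes were at least 2-fold lower with total counts, with or without Gm26917, and the median was 0.85 without Fn1 and Runx1 and 2.67 with scaling to fibroblast genes. In Lamp1-depleted cells total counts gave 2 genes higher, 1 lower and a median of 0.21, a minimum of 1 read gave 1 lower, and fibroblast scaling a median of 1.71. In Lamp1-enriched cells the median was 0.93 with a minimum of 50 reads and 1.39 without Fn1 and Runx1.

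With an 8-fold rule (log2 ratio of at least 3 or at most -3) the counts were 0 lower in unsorted cells, 1 higher in Lamp1-depleted cells, 3 higher and 0 lower in Lamp1-enriched cells, and, between the sorted fractions, 3 higher and 0 lower in sham and 4 higher and 0 lower in BLM cells. Without Fn1 and Runx1 the sort comparison gave 0 lower in both treatments and a sham median of 2.59. Fibroblast scaling, chosen after the data were seen, gave 3 higher, 2 lower and a median of 0.22 in sham cells and 3 higher, 3 lower and a median of -0.13 in BLM cells, and put below 0 Tnc in sham (-0.01, within counting error of 0) and Postn (-0.34), Fap (-1.05), Fn1 (-1.38) and Ltbp2 (-0.37) in BLM cells. By construction it shifts the sort ratios by -1.64 in sham and -2.41 in BLM cells, and those of genes with few reads by less. No paired analysis was possible because each condition has 1 library, and no replicate could be left out. Depth limits Grem1 and Lrrc15 in sham cells and Cthrc1 in Lamp1-depleted cells, where 3 reads or fewer, or 7, set the ratio.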
